A study of Mus musculus with 10 samples.

Results

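The genes described here encode potassium channels, their auxiliary subunits and 1 RNA from a channel locus, and were taken as every gene whose symbol begins with Kcn, apart from Kcnrg. A probe set, the group of probes on an exon array that covers about 1 exon, belonged to them when the platform annotation gave it exactly 1 such symbol. Of the 1256831 probe sets on the array, 318760 named exactly 1 gene, and 1130 of these named 89 potassium channel genes. A gene level, the mean log2 value of the probe sets brighter than the median of the whole array, was formed for genes with at least 3 of them, which left 84 of the 89 genes among 16367 genes in all. Kcna10, Kcnj1, Kcnk15, Kcnk5 and Kcnv2 had fewer than 3 and no gene level. RNA came from the amygdala, cut from a coronal brain slice of 3-month-old mice on the C57BL/6 background, with 5 arrays from wild-type and 5 from neuropsin-/- animals. Klk8 encodes neuropsin, a secreted serine protease, and the mutant line was crossed back to that strain over 12 generations. Each array held RNA of 3 animals, 15 animals per genotype, and no treatment was recorded in either group. The comparison asks how channel gene expression differed between the genotypes.

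Potassium channels let potassium leave the cell and so set the resting potential of neurons, end action potentials and limit repetitive firing. Voltage-gated channels open on depolarization, inward rectifiers hold the resting potential and some are opened by G proteins, leak channels carry background current, and calcium-activated and sodium-activated channels follow internal ions. Glial cells and the epithelium of the choroid plexus use other inward rectifiers to move potassium between compartments. In the amygdala, several of these currents shape how principal neurons adapt during firing.

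Averaged over all 9 of its probe sets, Klk8 stood at 5.17 ± 0.27 (SD, n = 5) in wild-type mice and 5.02 ± 0.29 in knockout mice, and the groups overlapped. Over its 5 tested probe sets the difference was -0.39 (SE 0.15, limma adjusted p 0.693), so the arrays did not check the genotype labels. All 3 measured neuron markers and all 6 basolateral amygdala markers were well above the filter. Summed hypothalamus markers, 5 of 6 measured and none at or below the filter, lay between -0.06 and 1.00 in wild-type mice and between -0.53 and -0.24 in the knockout, on a log2 scale centred over the arrays. These ranges did not overlap. Of the other regional lists, all 6 basolateral amygdala markers were higher in the knockout, with summed levels of -0.30 to 0.04 in wild-type mice and 0.03 to 0.10 in the knockout. None of the 5 measured central and medial amygdala markers was higher (-0.11 to 0.31 in wild-type mice, -0.25 to -0.003 in the knockout), nor any of the 5 measured striatum markers (-0.14 to 0.34 and -0.695 to 0.16). All 3 of these lists overlapped between the genotypes. The part of these markers in any difference given here was not tested. Each array was read once, and p-values weigh differences against the spread from array to array.

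Over the potassium channel genes as a group, no shift between genotypes was measured: 42 were higher (49.3% of all genes were) and 42 lower (50.7% of all genes were) in the knockout, with a median difference of 0.00 log2 units, against -0.002 over all genes. No gene passed the test (0 of 84; limma, Benjamini-Hochberg over all genes, threshold 0.05), with a smallest adjusted p of 0.446. Across all genes 4 passed, or 0.0244%. At an unadjusted p under 0.05 there were 12 potassium channel genes, or 14.3%, against 6.98% of all genes. Of these 12, 5 were higher, where 2.84% of all genes were, and 7 were lower, where 4.14% of all genes were. The shares of potassium channel genes and of all genes at this p lay closer together under some alternatives, given in the closing section. Groups did not overlap for 5 genes, where 1.55% of all genes were so separated: Kcnq1ot1, Kcnj9 and Kcnt1 higher (0.923% of all genes), and Kcna7 and Kcns3 lower (0.623%). Counted by role, 31 of 58 pore-forming subunits, 7 of 16 auxiliary subunits and 3 of 9 silent subunits were higher in the knockout.

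**Figure D1:**
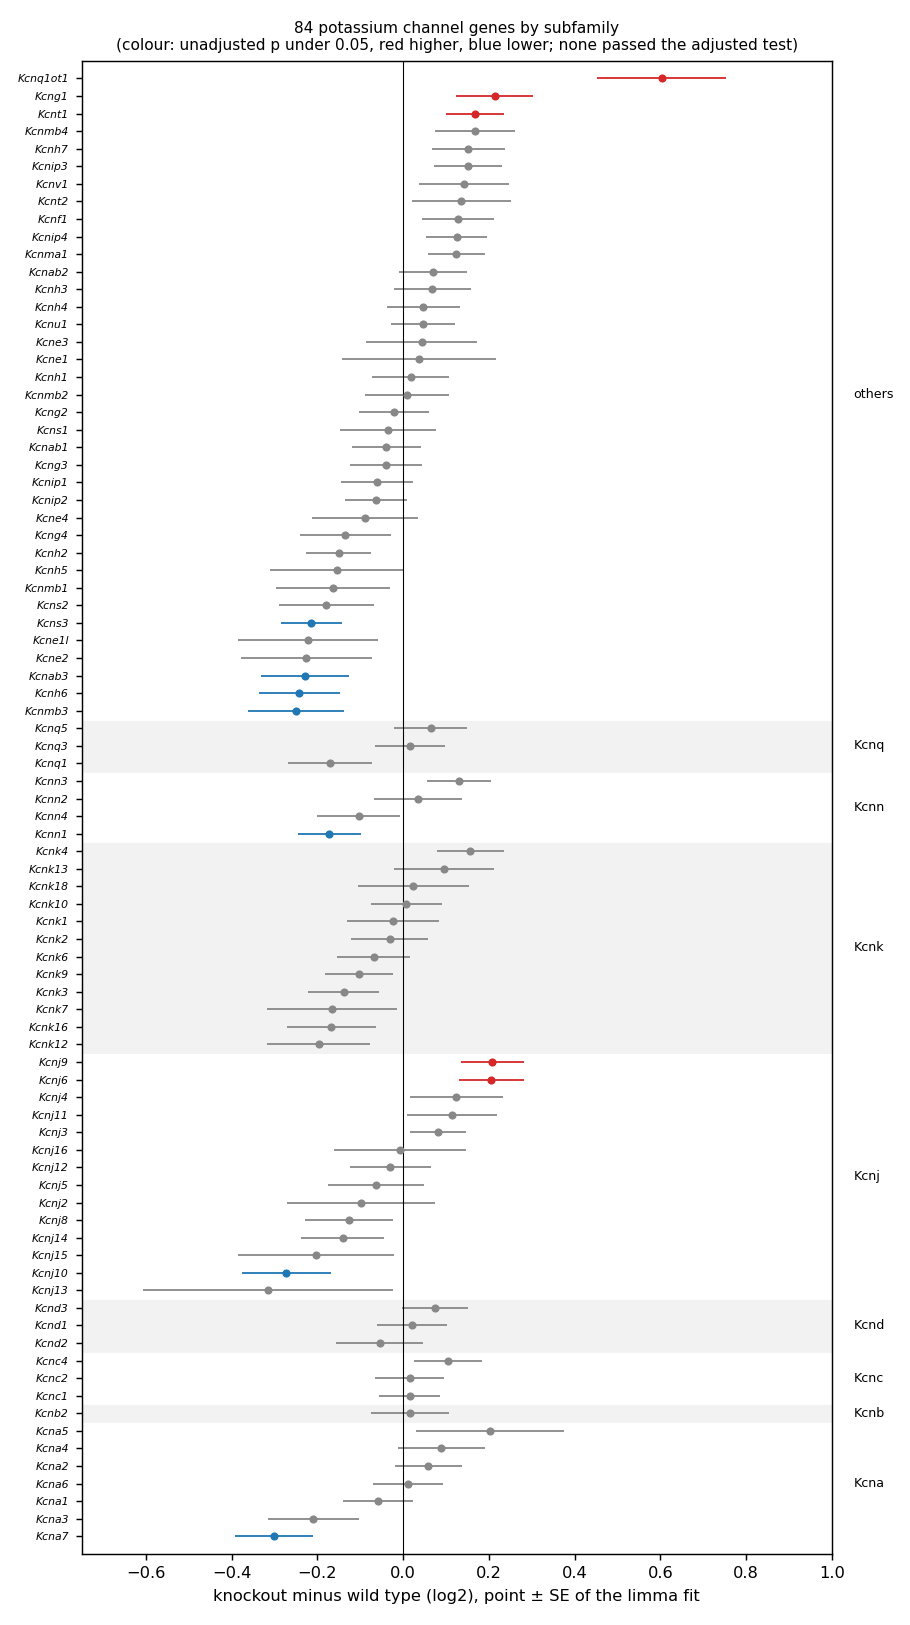
Difference between knockout and wild type in gene level (log2, horizontal axis) for the 84 potassium channel genes, arranged by subfamily, with the SE of the limma fit as bars. Most points lie near 0, Kcnq1ot1 stands farthest to the right at 0.60, and the coloured genes are the 12 with an unadjusted p under 0.05, none of which passed the adjusted test.

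Of the 14 inward rectifiers (Kcnj), 5 were higher and 9 lower in the knockout, with a median of -0.05. Of the 4 G protein-gated channels, 3 were higher in the knockout, with a median difference of 0.14, which became 0.09 with the stricter filter on dim probe sets (the 75th percentile of the array). Of the 4 channels of potassium transport none was higher, with a median of -0.24. Kcnj9 and Kcnj10, one from each of these roles, are neighbours on chromosome 1, and the sequences before their starts are shown because their levels differed in opposite directions. The windows are the 250 bases before the annotated start of each gene, from RefSeq (GRCm38.p6), 5′ to 3′ on the strand of the gene, with GC boxes (GGGCGG or its reverse complement) and TATA boxes (TATAAA or its reverse complement) in capitals. The Kcnj9 window is chr1:172329323-172329572 on the minus strand, the Kcnj10 window is chr1:172340960-172341209 on the plus strand, and 11387 bases lie between them.
Kcnj9: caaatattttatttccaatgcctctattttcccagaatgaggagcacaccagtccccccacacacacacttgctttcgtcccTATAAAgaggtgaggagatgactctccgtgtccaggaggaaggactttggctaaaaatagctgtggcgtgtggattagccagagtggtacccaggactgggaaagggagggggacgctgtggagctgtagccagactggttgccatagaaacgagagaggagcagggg
Kcnj10: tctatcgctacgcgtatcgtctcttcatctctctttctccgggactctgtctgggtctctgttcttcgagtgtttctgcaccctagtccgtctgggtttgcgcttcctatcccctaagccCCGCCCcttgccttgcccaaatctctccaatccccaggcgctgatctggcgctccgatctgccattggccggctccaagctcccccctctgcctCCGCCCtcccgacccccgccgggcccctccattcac
The window of Kcnj9 held 1 TATA box and no GC box, and that of Kcnj10 held 2 GC boxes and no TATA box. These matches describe the letters only.

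Kcnj9 encodes GIRK3, a subunit of the channels through which G protein-coupled receptors slow neuronal firing. Its level was 7.88, 7.90, 7.89, 7.87 and 7.96 on wild-type arrays 1 to 5 and 7.98, 8.21, 8.03, 8.06 and 8.25 on knockout arrays 1 to 5. Every knockout array was above every wild-type array. The difference was 0.21 (SE 0.074, 95% interval 0.05 to 0.37, p 0.0132, limma adjusted p 0.693), a fold of 1.16. Of its 11 probe sets 9 were tested, and all 9 were higher in the knockout, 1 of them at an unadjusted p under 0.05.

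Kcnj6 encodes GIRK2, the subunit that can form functional channels alone in neurons. Its wild-type levels were 6.93, 6.91, 7.19, 6.92 and 6.91, and its knockout levels were 7.26, 7.17, 7.19, 7.12 and 7.15. Wild-type array 3 lay within the knockout range, and the other 4 wild-type arrays lay below all knockout arrays. The difference was 0.21 (SE 0.075, p 0.0161, limma adjusted p 0.693), with 7 of 10 probe sets higher. With the stricter filter it was 0.09 (p 0.269, limma adjusted p 0.86). The window before 1 of the 2 starts listed for Kcnj6, chr16:94997697-94997946 on the minus strand (RefSeq, GRCm38.p6), is shown beside those of Kcnj9 and Kcnj10 because Kcnj6 and Kcnj9 were the G protein-gated channels of smallest p, and none of the searched letters occurred in it.
Kcnj6: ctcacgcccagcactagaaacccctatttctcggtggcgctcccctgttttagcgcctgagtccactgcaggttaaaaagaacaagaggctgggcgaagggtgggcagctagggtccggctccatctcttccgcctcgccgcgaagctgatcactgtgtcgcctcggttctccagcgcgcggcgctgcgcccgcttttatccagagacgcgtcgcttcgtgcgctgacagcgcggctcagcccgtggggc

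Kcnj3 and Kcnj5 are the remaining G protein-gated subunits, GIRK1 and GIRK4, the latter known mainly from the heart. Kcnj3 stood at 8.80 ± 0.04 in wild-type mice and 8.89 ± 0.06 in the knockout (SD, n = 5), a difference of 0.08 with a 95% interval of -0.06 to 0.22. Kcnj5 stood at 6.60 ± 0.26 and 6.54 ± 0.09, a difference of -0.06 with an interval of -0.30 to 0.18. Both intervals include 0. The classical inward rectifiers Kcnj2, Kcnj4, Kcnj12 and Kcnj14 differed by -0.14 to 0.12, with 1 of 4 higher. The ATP-sensitive channel genes Kcnj8 and Kcnj11, which couple metabolism to excitability, differed by -0.13 and 0.115, and neither had an unadjusted p under 0.05.

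**Figure D2:**
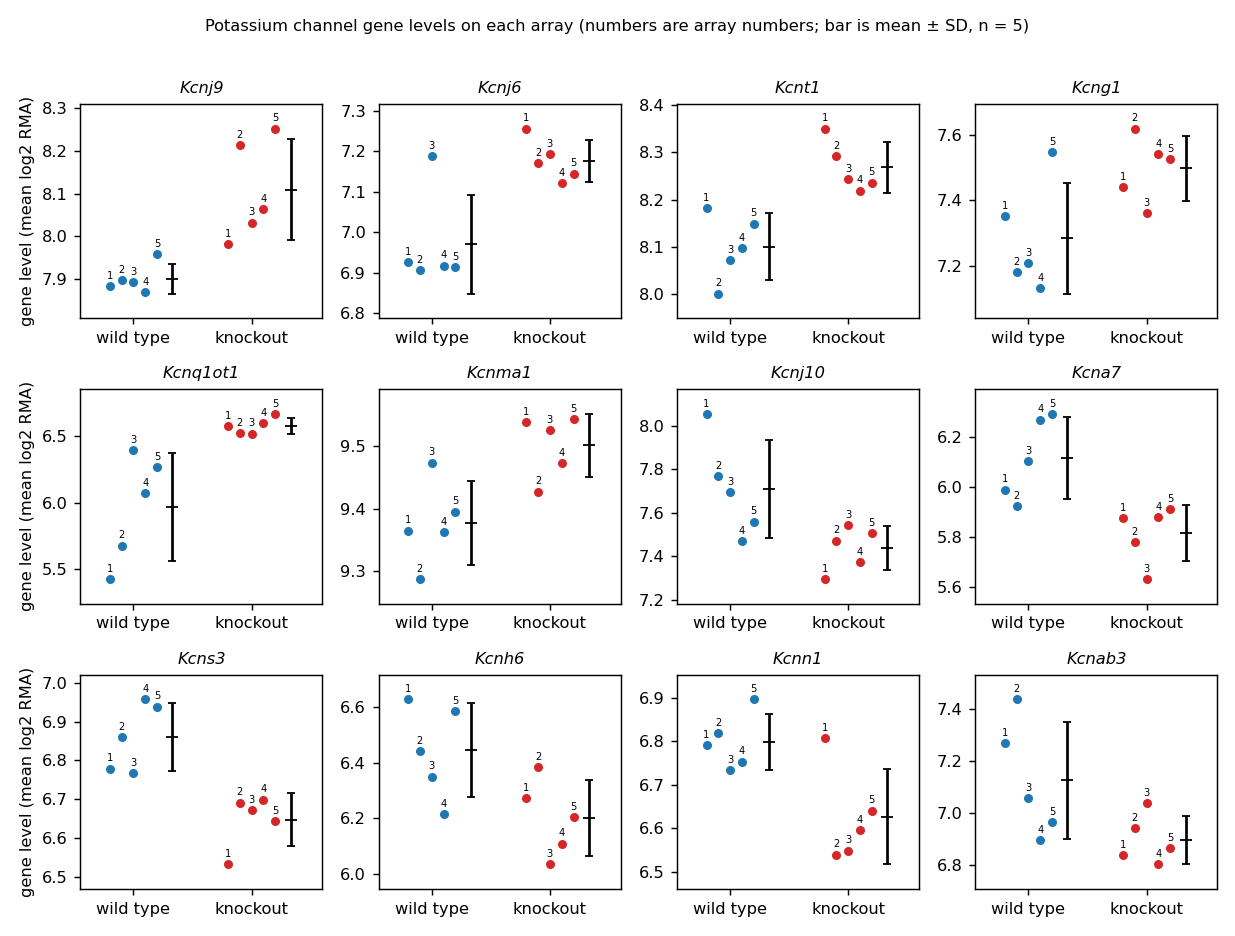
Gene level (mean log2 RMA value, vertical axis, with its own range in each panel) of 12 potassium channel genes on each of the 10 arrays; points are arrays, numbers are array numbers and bars are mean ± SD (n = 5). The 2 genotypes do not overlap for Kcnj9, Kcnt1, Kcnq1ot1, Kcna7 and Kcns3, and overlap for the other 7 genes.

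Kcnj10 encodes Kir4.1, the main potassium channel of astrocytes, also present in oligodendrocytes. Its level was 8.05, 7.77, 7.69, 7.47 and 7.56 on the wild-type arrays and 7.30, 7.47, 7.54, 7.37 and 7.51 on the knockout arrays. The 3 highest arrays were wild-type arrays 1 to 3, and wild-type arrays 4 and 5 lay within or just above the knockout range. The difference was -0.27 (SE 0.10, p 0.0194, limma adjusted p 0.693), and 0 of 6 probe sets were higher. Summed oligodendrocyte markers, 5 of 6 measured and all 5 lower in the knockout, ranged from -0.36 to 0.52 in wild-type mice and from -0.37 to 0.02 in the knockout, and were highest on wild-type arrays 1 to 3. The knockout arrays did not share this order: array 1 had the lowest Kcnj10 level of the 5 and the highest oligodendrocyte level, and array 3, the highest in Kcnj10, had an oligodendrocyte level of -0.14. Summed astrocyte markers, all 6 measured and 5 of them lower in the knockout, ranged from -0.24 to 0.15 and from -0.12 to 0.05. They too were highest on wild-type arrays 1 to 3, as were summed endothelium and pericyte markers (5 of 6 measured). Among the knockout arrays the astrocyte level was highest on array 4, at 0.05, where Kcnj10 was 7.37. No marker of these lists was at or below the filter, and the part of any of these cell types in the Kcnj10 difference was not tested. Fewer cells of a type and less RNA per cell cannot be told apart in these tissue pools.

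Kcnj13 encodes Kir7.1, a channel of transporting epithelia including the choroid plexus, the tissue that secretes cerebrospinal fluid. It varied more than any other potassium channel gene within both genotypes, at 6.69, 7.37, 7.44, 6.01 and 6.81 in wild-type mice and 6.72, 7.44, 6.63, 6.06 and 5.90 in the knockout. Wild-type arrays 2 and 3 and knockout array 2 were the 3 highest, and wild-type array 4 and knockout arrays 4 and 5 the 3 lowest. The same arrays were the 3 highest and the 3 lowest for the summed choroid plexus markers, all 6 measured, none at or below the filter, which ranged from -0.59 to 0.74 in wild-type mice and from -0.89 to 0.70 in the knockout. None of these 6 markers was higher in the knockout, and their part in the Kcnj13 values was not tested. The difference in Kcnj13 was -0.315 with an SE of 0.29 and a 95% interval of -0.94 to 0.31. Kcnj16, the partner of Kcnj10 in mixed channels, differed by -0.01 (SE 0.15), and was lowest on wild-type arrays 4 and 5 and knockout array 5, the 3 arrays that were also lowest in astrocyte markers. Kcnj15 differed by -0.20 (SE 0.18), and the single tested probe set of Kcnj1, a kidney channel, by -0.44.

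**Figure D3:**
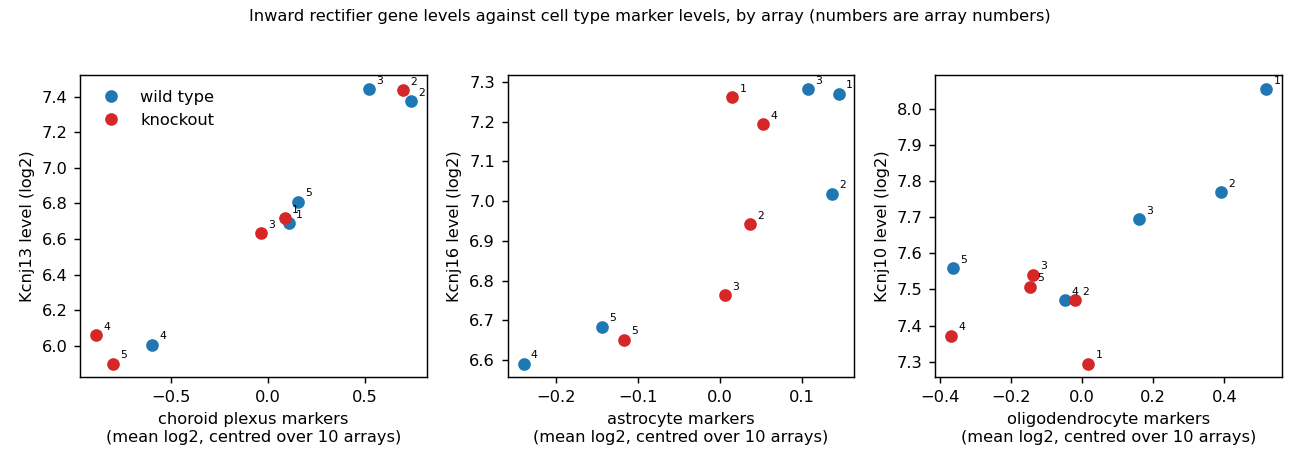
Levels of 3 inward rectifier genes (log2, vertical axes) against the summed level of a cell type's markers on the same array (mean log2, centred over the 10 arrays, horizontal axes); points are arrays and numbers are array numbers. Kcnj13 and the choroid plexus markers share their 3 highest and 3 lowest arrays, Kcnj16 and the astrocyte markers share their 3 lowest, and Kcnj10 is highest on wild-type arrays 1 to 3, which are also the highest in oligodendrocyte markers, while knockout array 1 is lowest in Kcnj10 and has the highest oligodendrocyte level of the 5 knockout arrays.

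The largest difference among the potassium channel genes was that of Kcnq1ot1, a long noncoding RNA that is made from the paternal copy of the imprinted Kcnq1 locus on chromosome 7 and silences neighbouring genes in cis. Its level was 5.43, 5.68, 6.39, 6.07 and 6.26 on the wild-type arrays and 6.57, 6.52, 6.51, 6.59 and 6.66 on the knockout arrays. All knockout arrays were above all wild-type arrays, and the wild-type arrays spread more, with an SD of 0.40 against 0.06. The difference was 0.60 (SE 0.15, 95% interval 0.28 to 0.93, p 0.00129, limma adjusted p 0.446), a fold of 1.52. Of its 8 tested probe sets, 7 were higher, 4 of them at an unadjusted p under 0.05 and 2 with groups that did not overlap. Kcnq1 lies in the same locus and encodes a channel best known from heart and inner ear. It was 6.16 ± 0.11 in wild-type mice and 5.99 ± 0.20 in the knockout (SD, n = 5), a difference of -0.17 (SE 0.098, p 0.105, limma adjusted p 0.747), and none of its 12 tested probe sets had an unadjusted p under 0.05. Which strand each probe set reads is not given in the sources used here, so signal of the 2 overlapping genes could be shared. The window before the start of Kcnq1ot1, chr7:143296548-143296797 on the minus strand (RefSeq, GRCm38.p6), held none of the searched letters and is shown because this RNA had the smallest p.
Kcnq1ot1: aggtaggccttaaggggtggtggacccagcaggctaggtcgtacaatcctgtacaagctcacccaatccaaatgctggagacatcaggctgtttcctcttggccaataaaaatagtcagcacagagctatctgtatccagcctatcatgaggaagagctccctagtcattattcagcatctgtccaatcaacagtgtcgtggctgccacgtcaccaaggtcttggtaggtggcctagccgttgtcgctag

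Klk8 also lies on chromosome 7, where 9 of the 84 potassium channel genes are found. By number of tested genes in the reference gene order, the nearest was Kcna7, 69 genes away, followed on the same side by Kcnj14 at 95, Kcnj11 at 105 and Kcnc1 at 110. On that side Kcne3 was 360, Kcnq1 817 and Kcnq1ot1 818 genes away, and on the other side Kcnk6 was 134 and Kcnn4 257 genes away. Of the 9, 4 were higher and 5 lower, with a median of -0.07, and Kcna7 and Kcnq1ot1 were those with an unadjusted p under 0.05, or 2 of 9, where 6.98% of all genes were. Of the 75 on other chromosomes, 38 were higher and 37 lower, with a median of 0.01, and 10, or 13.3%, had such a p. Whether the chromosome 7 genes differ from the others was not tested.

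Among the voltage-gated channels, Kcna7 of the Kv1 subfamily, a gene known mainly from muscle, was lower in the knockout. It stood at 5.99, 5.92, 6.10, 6.27 and 6.29 on the wild-type arrays and at 5.88, 5.78, 5.63, 5.88 and 5.91 on the knockout arrays. The highest knockout array lay just below the lowest wild-type array. The difference was -0.30 (SE 0.091, p 0.0052, limma adjusted p 0.624), resting on 4 of its 10 probe sets, since the other 6 were below the filter. With no filter it was -0.21 (p 0.122, limma adjusted p 0.797), and without wild-type arrays 4 and 5 it was -0.19 (p 0.0444, limma). Kcna3, the Kv1.3 channel of neurons and immune cells, was 7.92 ± 0.18 in wild-type mice and 7.72 ± 0.18 in the knockout (SD, n = 5), a difference of -0.21 (p 0.0686, limma adjusted p 0.719), with 0 of 4 probe sets higher. Summed microglia markers, all 6 measured, ranged from -0.16 to 0.25 in wild-type mice and from -0.11 to 0.01 in the knockout, and their part in Kcna3 was not tested. The axonal channels Kcna1 and Kcna2, which keep axons from firing repeatedly, differed by -0.06 and 0.06. Kcna4, an inactivating channel of axons and terminals, differed by 0.09. Over the 7 Kv1 genes, 4 were higher and 3 lower, with a median of 0.01.

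The Kv3 genes Kcnc1 and Kcnc2, which allow fast-spiking interneurons to fire at high rates, each differed by 0.015, with 95% intervals of -0.14 to 0.17 and -0.16 to 0.19. Kcnc4 differed by 0.105 (SE 0.08). The Kv4 genes Kcnd2 and Kcnd3, which carry the dendritic A-type current, differed by -0.055 (SE 0.10) and 0.075 (SE 0.077). Kcnb2, of the delayed rectifiers, differed by 0.015 (SE 0.091). For the Kv7 genes of the M-current, Kcnq3 differed by 0.016 (SE 0.081) and Kcnq5 by 0.064 (SE 0.085). None of these 8 genes had an unadjusted p under 0.05, and every 95% interval included 0.

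The ether-a-go-go genes (Kcnh) held 1 of the 7 lower genes. Kcnh6, which encodes an Erg channel, was 6.63, 6.44, 6.35, 6.22 and 6.59 on the wild-type arrays and 6.27, 6.39, 6.04, 6.11 and 6.21 on the knockout arrays. The groups overlapped, with 2 knockout arrays above the lowest wild-type array. The difference was -0.24 (SE 0.095, p 0.0234, limma adjusted p 0.693), and 12 of 15 probe sets were lower, 4 of them at an unadjusted p under 0.05. It was -0.06 (p 0.619, limma adjusted p 0.952) with the stricter filter and -0.17 (p 0.0902) with none. The related Kcnh2 differed by -0.15 (SE 0.076), with 17 of 20 probe sets lower, and Kcnh7 by 0.15 (SE 0.085), with 25 of 28 probe sets higher, so that the 3 Erg genes did not differ in 1 direction. Kcnh5 differed by -0.155 (SE 0.155), Kcnh3 by 0.07, Kcnh4 by 0.05 and Kcnh1 by 0.02.

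Of the channels opened by internal ions, Kcnt1 was higher. Kcnt1 encodes Slack, a sodium-activated channel that acts after bursts of firing. It stood at 8.18, 8.001, 8.07, 8.10 and 8.15 on the wild-type arrays and at 8.35, 8.29, 8.24, 8.22 and 8.24 on the knockout arrays. Every knockout array was above every wild-type array. The difference was 0.17 (SE 0.068, p 0.0264, limma adjusted p 0.693), and 33 of 39 probe sets were higher. Kcnt2, the related Slick gene, differed by 0.14 (SE 0.12), with 22 of 28 probe sets higher, and without wild-type arrays 4 and 5 its difference was -0.04.

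The large-conductance calcium-activated (BK) channel has its pore from Kcnma1 and its gating tuned by the Kcnmb subunits. Kcnma1 was 9.36, 9.29, 9.47, 9.36 and 9.40 on the wild-type arrays and 9.54, 9.43, 9.53, 9.47 and 9.54 on the knockout arrays. Wild-type array 3 lay within the knockout range and the other 4 wild-type arrays lay below it. The difference was 0.12 (SE 0.067, p 0.085, limma adjusted p 0.733), with 35 of 41 probe sets higher. Kcnmb4, the neuronal subunit, was 7.64 ± 0.19 in wild-type mice and 7.81 ± 0.09 in the knockout (SD, n = 5), a difference of 0.17 (SE 0.093), which was 0.09 without wild-type array 4 (limma p 0.256) and 0.08 with the stricter filter. Kcnmb3 was lower by 0.25 (difference -0.25, SE 0.11, p 0.043, limma adjusted p 0.705), and its groups overlapped at 6.23 to 6.56 in wild-type mice and 5.82 to 6.37 in the knockout. Without knockout array 5 the Kcnmb3 difference was -0.16 (p 0.133, limma). Kcnmb1 differed by -0.16 and Kcnmb2 by 0.01.

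The small-conductance (SK) channels carry an afterhyperpolarization that follows spikes. Kcnn1 was 6.79, 6.82, 6.73, 6.75 and 6.90 on the wild-type arrays and 6.81, 6.54, 6.55, 6.60 and 6.64 on the knockout arrays. Knockout array 1 lay within the wild-type range and the other 4 knockout arrays lay below it. The difference was -0.17 (SE 0.074, p 0.036, limma adjusted p 0.693), with 17 of 19 probe sets lower. On the median over its probe sets it was -0.03, and with the stricter filter -0.11. Kcnn3 differed in the other direction, by 0.13 (SE 0.074, p 0.103, limma adjusted p 0.746), with 14 of 15 probe sets higher, and Kcnn2 by 0.035 (SE 0.10). Without wild-type arrays 4 and 5 the Kcnn3 difference was 0.07 (p 0.323, limma), and on the median over its probe sets it was 0.045. Kcnn4, the intermediate-conductance channel of blood cells and microglia, differed by -0.10 (SE 0.096).

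Of the 12 leak channels (Kcnk), 8 were lower, where 50.7% of all genes were, with a median of -0.05, and none had an unadjusted p under 0.05. Kcnk4, the mechanosensitive TRAAK channel, had the smallest p of the 12 and was higher, at 7.45 ± 0.13 in wild-type mice and 7.61 ± 0.05 in the knockout (SD, n = 5; difference 0.16, SE 0.078; limma p 0.0633, adjusted p 0.719). Kcnk3 and Kcnk9, the acid-sensitive TASK channels, differed by -0.14 (SE 0.082) and -0.10 (SE 0.08), and all 6 and all 4 of their tested probe sets were lower. Kcnk12, a silent halothane-inhibited relative, differed by -0.20 (SE 0.12), with 5 of 6 probe sets lower. It differed by 0.07 when its level was the median over its 6 probe sets. Kcnk1 and Kcnk2, the TWIK and TREK leak channels, differed by -0.02 and -0.03.

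Silent subunits do not form channels alone but change those of Kv2. Kcns3 was 6.78, 6.86, 6.77, 6.96 and 6.94 on the wild-type arrays and 6.53, 6.69, 6.67, 6.70 and 6.64 on the knockout arrays. Every knockout array was below every wild-type array. The difference was -0.21 (SE 0.071, p 0.0096, limma adjusted p 0.693), with 5 of 6 probe sets lower. The Kcns3 probe sets differed by -0.83 to 0.03. Only 1 of the 6 had an unadjusted p under 0.05, and 0 had groups that did not overlap. Its relatives Kcns2 and Kcns1 differed by -0.18 (SE 0.11) and -0.035 (SE 0.11). Kcng1 was 7.28 ± 0.17 in wild-type mice and 7.50 ± 0.10 in the knockout (SD, n = 5), a difference of 0.21 (SE 0.09, p 0.0318, limma adjusted p 0.693). Wild-type array 5, at 7.55, was within the Kcng1 range of the knockout. The median over the 5 Kcng1 probe sets gave -0.08 in place of 0.21, although 4 of these 5 were higher. Kcnf1 and Kcnv1 were higher by 0.13 and 0.14, with SEs of 0.084 and 0.105.

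The cytoplasmic beta subunits (Kcnab) bind Kv1 channels. Kcnab3 was 7.27, 7.44, 7.06, 6.90 and 6.97 on the wild-type arrays and 6.84, 6.94, 7.04, 6.80 and 6.87 on the knockout arrays. Wild-type arrays 1, 2 and 3 were above all knockout arrays, and arrays 4 and 5 were not. The difference was -0.23 (SE 0.10, p 0.0412, limma adjusted p 0.701), with 16 of 17 probe sets lower. It was -0.15 without wild-type array 2 (p 0.118, limma), -0.15 with the stricter filter and -0.05 on the median over its probe sets. Kcnab1 and Kcnab2 differed by -0.04 and 0.07. The Kv4-interacting proteins, which raise the A-type current, held 2 higher and 2 lower genes: Kcnip3 at 0.15 (SE 0.079) with 12 of 13 probe sets higher, Kcnip4 at 0.125 (SE 0.071), Kcnip1 at -0.06 and Kcnip2 at -0.06. Without wild-type arrays 4 and 5 the Kcnip3 and Kcnip4 differences were 0.069 and 0.071 (p 0.324 and 0.322, limma). On the median over its 16 probe sets Kcnip4 differed by -0.07, although 13 of these 16 were higher. The MinK-related genes (Kcne) had 2 higher and 3 lower members, between -0.23 and 0.04, and Kcne2, also an epithelial subunit, differed by -0.23 (SE 0.15).

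On single probe sets, 0 of the 947 above the filter passed (limma, Benjamini-Hochberg over all probe sets; smallest adjusted p 0.740), where 15 of 628415 passed on the whole array, or 0.00239%. At an unadjusted p under 0.05 there were 47 potassium channel probe sets, 22 higher and 25 lower, or 4.96%, against 5.97% of all tested probe sets and 4.46% of those with 1 gene name. Of all tested probe sets 3.33% were higher and 2.64% lower at this p. The share in the potassium channel genes was between those of the 2 backgrounds here, but not under every setting: it was 7.26% against 6.16% of all tested probe sets with no filter, and 6.65% against 5.87% with a trended and robust prior. Groups did not overlap for 14 of them, 9 higher and 5 lower, or 1.48%, against 1.10% of all tested probe sets (0.693% higher and 0.409% lower). The smallest p belonged to a probe set of Kcnq1ot1, at 4.94, 5.62, 6.55, 6.14 and 6.17 on the wild-type arrays and 7.02, 7.01, 6.83, 7.05 and 6.58 on the knockout arrays, a difference of 1.02 (SE 0.26; limma p 0.0018, adjusted p 0.740). Its knockout arrays were all above its wild-type arrays. The next was a probe set of Kcnh6, 6.28 ± 0.11 in wild-type mice and 5.64 ± 0.32 in the knockout (SD, n = 5), a difference of -0.63. A probe set of Kcnab3 differed by -0.72, one of Kcnf1 by 0.425 and one of Kcnj6 by 0.55, each with groups that did not overlap. Among genes without a gene level, 1 of 2 tested probe sets each of Kcnk5 and Kcnv2 had an unadjusted p under 0.05, with differences of -0.71 and -0.62.

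Relative exon use asks whether a probe set differs between genotypes by more or less than the rest of its gene. By diffSplice with 1 variance per gene, 2 of the 84 potassium channel genes passed, Kcnma1 (adjusted Simes p 9.44e-05) and Kcnh4 (adjusted Simes p 0.0404), where 276 of all genes, or 1.69%, passed. With a variance for each probe set, 0 of the 84 passed, where 0.0367% of all genes did, and the adjusted p was 0.972 for Kcnma1 and 0.968 for Kcnh4. In Kcnma1 the call came from 1 probe set, at 6.70, 6.31, 5.99, 6.45 and 6.66 on the wild-type arrays and 5.51, 5.93, 6.38, 5.76 and 5.47 on the knockout arrays. Knockout array 3 lay within the wild-type range and the other 4 below it. This probe set differed by -0.61 and by -0.75 relative to the other probe sets of Kcnma1, and it was the dimmest of the 41. In Kcnh4 the leading probe set was also the dimmest of its 21 tested, at 4.73 ± 0.43 in wild-type mice and 5.64 ± 0.46 in the knockout (SD, n = 5), a difference of 0.91 relative to the rest. Its wild-type mean lay below the filter of 4.94, so it entered the test only through its knockout values. The Kcnh4 probe set of next smallest p in this test differed by -0.82 relative to the rest. Leaving out any of 7 of the 10 arrays (wild-type arrays 1, 2, 3 and 5 or knockout arrays 2, 3 and 4) lost the Kcnh4 call, at an adjusted Simes p between 0.0527 and 0.122, while Kcnma1 passed with any 1 of the 10 arrays left out. The exons under these probe sets are not named, since the sources used here give no build for the array's annotation.

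**Figure D4:**
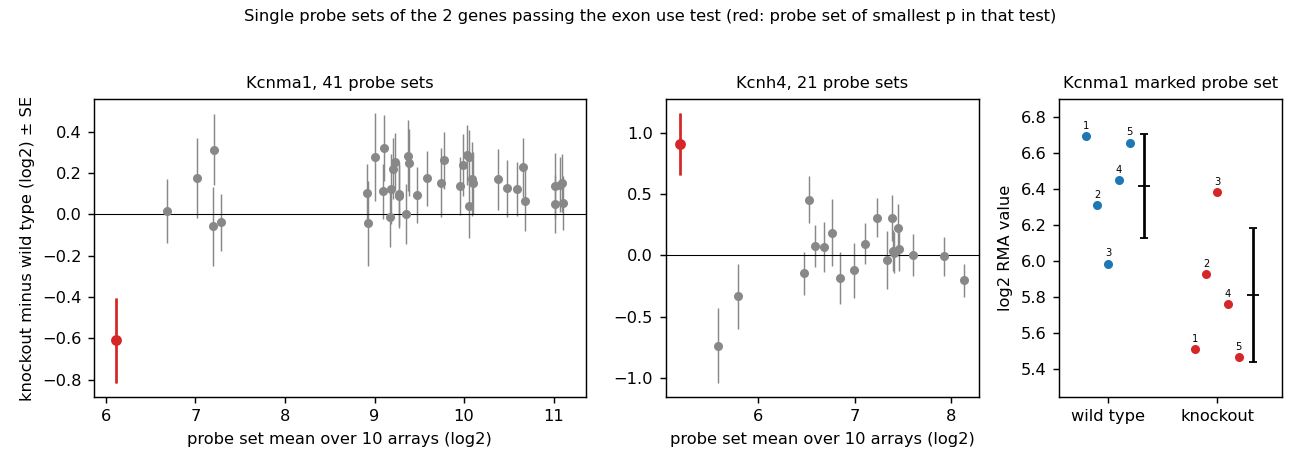
Difference between knockout and wild type (log2, vertical axis, ± SE) of each tested probe set of Kcnma1 and Kcnh4 against its mean over the 10 arrays (log2, horizontal axis), and at right the values of the marked Kcnma1 probe set on each array with mean ± SD (n = 5). The marked probe sets, at -0.61 and 0.91, are the dimmest tested ones of their genes, and the 2 genotypes overlap in the right panel.

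The sign of the differences followed the brightness of the genes. Of the 45 potassium channel genes in the upper part of the level range, split at the median of all genes (7.09), 31 were higher in the knockout (68.9%), as were 63.6% of all genes there. Of the 39 in the lower part, 28 were lower (71.8%), as were 65.0% of all genes there. The same split thus appeared over all genes.

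The arrays also differed in ways the genotype did not explain. In a principal component analysis of the 84 levels, the first component held 29.4% of the variance and placed wild-type arrays 4 and 5 at 1.38 and 1.25 and knockout arrays 4 and 5 at 1.06 and 0.55, with the other 6 arrays between -1.22 and -0.43. Kcnj13, Kcnj2, Kcnt2, Kcnh5 and Kcnj16 weighed most in the direction of lower levels on the first 4 of these arrays. Kcnj15, Kcnk7 and Kcne1l weighed most in the direction of higher levels there. Kcnj15 was higher on arrays 4 and 5 than on arrays 1 to 3 by 0.53 in wild type and by 0.52 in the knockout. Kcnj13 was lower on arrays 4 and 5 than on arrays 1 to 3 by 0.76 in wild type (-0.76) and by 0.95 in the knockout (-0.95), and Kcnj2 by 0.47 (-0.47) and 0.43 (-0.43). The second component held 20.9% of the variance. It placed the wild-type arrays between 0 and 1.23 and the knockout arrays between -0.98 and 0.05, ranges that overlapped. The labels give no batch. Without wild-type arrays 4 and 5, 0 of the 84 genes passed, 4 were higher and 6 lower at an unadjusted p under 0.05, against 5 and 7 with them, while the share of all genes at this p went from 6.98% to 11.2%.

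A list of genes outside the family held genes that bind, traffic or modify these channels and also other ion channels, among them Hcn2, Hcn3 and Hcn4. It named 35 genes, of which 31 were measured. Of these, 22 were higher, where 49.3% of all genes were, and 9 lower, with a median difference of 0.05, and 0 passed the test. Of the 23 listed genes in the upper part of the level range 19 were higher, where 63.6% of all genes there were, and of the 8 in the lower part 3 were. At an unadjusted p under 0.05 there were 2 of the 31, or 6.45%, against 6.98% of all genes. The 3 of smallest p were 2 genes of the hyperpolarization-activated current and 1 ubiquitin ligase. Hcn2 was 8.49, 8.47, 8.29, 8.30 and 8.31 on the wild-type arrays and 8.23, 8.27, 8.28, 8.001 and 8.24 on the knockout arrays. Every knockout array was below every wild-type array. The difference in Hcn2 was -0.17 (SE 0.08; limma p 0.0494, adjusted p 0.713), that in Hcn4 was -0.21 (SE 0.088; limma p 0.0306, adjusted p 0.693), and that in Nedd4l, a ligase that removes channels from the membrane, was 0.15 (SE 0.077; limma p 0.0684, adjusted p 0.719). Hcn3 differed by -0.05 (SE 0.087, limma p 0.582). Dpp6 and Dpp10, the transmembrane partners of Kv4, differed by 0.06 and 0.08.

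Promoters were listed for 68 of the 89 genes, 93 windows in all, and the 250 bases before each start were searched on both strands and set beside all 32851 windows of the table. The GC box (GGGCGG) was present in 44.1% of the potassium channel windows and 32.7% of all windows. The TATA box (TATAAA) was present in 3.2% and 12.4%, the E-box (CACGTG) in 6.5% and 6.0%, and the cAMP response element (TGACGTCA) in 0 of 93 windows and 1.5% of all. Median GC content was 58.4% against 52.4%. Kcnj9, with a TATA box, was therefore 1 of 3 potassium channel windows to hold one.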

How the data were processed

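Values were deposited as log2 expression values per probe set, made by the authors with RMA (Affymetrix Expression Console), per the submitters' processing notes. The sources used here give no versions and no build for the annotation. Array medians lay between 4.95 and 5.03. RMA shrinks differences of dim probe sets, and 5 arrays per genotype limit the precision. Probe sets with 1 gene in the platform annotation were used. Older symbols were updated through the reference gene table (GRCm38.p6), and 16 probe sets whose older name maps to a Kcn symbol were left out, since the rule reads the platform's own symbol. The filter was a mean over 10 arrays above the median of all probe sets (4.94), and a gene needed 3 such probe sets. Knockout minus wild type was fitted over all genes or probe sets with limma 3.58.1 in R 4.3.3 (lmFit, eBayes, diffSplice with Simes p; data.table version 1.17.8), two-sided, Benjamini-Hochberg adjusted, threshold 0.05. The scripts were tested on simulated data. The members, lists and the rule for named genes (smallest p overall and per subfamily, chromosome 7, a list of brain channels, and any that passed) were chosen with earlier results of these data known. A planned description of the proteins was not made, because no protein table was used here. The labels tie same-numbered arrays of the 2 genotypes by number only. Alternatives changed the normalization, centring, filter, gene summary, variance prior, array weights, block, threshold and arrays.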

Additional observations from a re-analysis of the deposited data

Results flagged for a closer look

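For Kcnj6, wild-type array 3 stood at 7.19 on the log2 scale while the other 4 wild-type arrays lay between 6.91 and 6.93. Its gap to the nearest array was 0.929 of the range of the group, above the critical value of 0.71 for 5 arrays. Over the 60 groups examined, 1 was set apart in this way, where chance sets apart about 1 in 20.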

How the results depend on the processing

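No potassium channel gene and no single probe set passed the adjusted test under any alternative run. The 7 lower genes at an unadjusted p under 0.05 became 4 with each array centred on its median, 3 with the stricter filter (the 75th percentile of all probe sets, which kept 65 of the 84 genes), 11 with the replicate block and 4 with the median over probe sets. Leaving out 1 array gave 4 to 9, with 4 without wild-type array 1, wild-type array 2 or knockout array 4. The 5 higher genes became 2 with the stricter filter, and 3 to 6 with 1 array left out, 3 without knockout array 2. The share of all genes at this p, 6.98%, was 11% with the replicate block, 10.6% without wild-type array 3 and 11.2% without wild-type arrays 4 and 5, so the potassium channel counts under these settings stand against a larger background. It was 6.07% with arrays centred, 5.73% with the median over probe sets and 5.32% to 10.6% with 1 array left out. With the stricter filter, 2 higher and 3 lower of 65 genes stood against 6.36% of all genes. Without wild-type arrays 4 and 5, 4 higher and 6 lower of 84 stood against 11.2%. The 2 genes of the exon use test became 4 with no filter, 0 with the stricter filter, 0 with a variance per probe set, and 1 to 3 with 1 array left out; the count was 1 without wild-type arrays 1, 2, 3 or 5 or knockout arrays 2, 3 or 4. Among the genes recomputed, the sign turned for Kcnt2 at -0.039 once wild-type arrays 4 and 5 were dropped, and under the median over probe sets Kcng1 at -0.079, Kcnip4 at -0.073 and Kcnk12 at 0.073. That median was taken over the probe set levels of each array, not over the probe set differences. By those differences, 4 of 5 probe sets of Kcng1 and 13 of 16 of Kcnip4 were higher, and 5 of 6 of Kcnk12 were lower. The cause of the turned signs was not tested. Deviations of same-numbered arrays correlated at 0.282, 0.082, 0.265, 0.412 and 0.24, and not every array correlated best with its own number, so the numbers were not taken as pairs. The Kcnq1ot1 difference ranged from 0.469 to 0.736 and the Kcnj9 difference from 0.173 to 0.286 over the alternatives, with adjusted p of 0.185 to 0.726 and 0.346 to 0.925. Of the 12 genes at an unadjusted p under 0.05, Kcnj9 and Kcns3 kept such a p in 20 of 20 alternatives, Kcnq1ot1 in 19 of 19, Kcnj10 in 18 of 20, Kcnj6 in 17 of 20, Kcna7 in 17 of 19, Kcnt1 in 16 of 20, Kcnh6 in 14 of 20, Kcng1 in 12 of 20, Kcnab3 in 10 of 20, Kcnn1 in 8 of 20 and Kcnmb3 in 8 of 19. Their differences ranged from -0.299 to -0.058 for Kcnh6, from -0.358 to -0.048 for Kcnab3, from -0.217 to -0.034 for Kcnn1, from -0.302 to -0.163 for Kcnmb3, from -0.348 to -0.19 for Kcna7, from -0.402 to -0.186 for Kcnj10, from -0.364 to -0.156 for Kcns3, from 0.088 to 0.261 for Kcnj6, from -0.079 to 0.28 for Kcng1 and from 0.117 to 0.188 for Kcnt1. Kcnq1ot1, Kcna7 and Kcnmb3 have 19 alternatives because they had no gene level with the stricter filter. All alternatives reuse the same arrays, and the 12 genes were picked by this p in the main run.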
